A study of Mus musculus with 24 samples.

Results

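Cadherins and protocadherins are calcium-dependent adhesion proteins of the cell surface. The genes described here are all rows of the count table whose symbol is Cdh followed by a number only, or Pcdh followed by a number or by a, b or g and a number, which gave 35 of the 32962 genes. They comprised 4 type I classical cadherins (Cdh1, Cdh2, Cdh3 and Cdh4), 13 type II classical cadherins (Cdh5 to Cdh12, Cdh18, Cdh19, Cdh20, Cdh22 and Cdh24), 5 atypical cadherins (Cdh13, Cdh16, Cdh17, Cdh23 and Cdh26), 9 delta protocadherins (Pcdh1, Pcdh7 to Pcdh10, Pcdh11x and Pcdh17 to Pcdh19), 3 other single-gene protocadherins (Pcdh12, Pcdh15 and Pcdh20) and 1 clustered protocadherin (Pcdha1). The remaining clustered protocadherins and Cdh15 were not analysed here.

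The outer parts of classical cadherins bind cadherins on the neighbouring cell, mostly of the same or a related kind, and their inner parts hold catenins that link to actin. Type II cadherins and delta protocadherins are known for being used in different combinations by different neurons, in the spinal cord among motor neuron pools and interneurons, where they take part in cell sorting and in the choice of synaptic partners. Atypical members differ in design: Cdh13 (T-cadherin) has no transmembrane part and is held by a lipid anchor, and Cdh23 and Pcdh15 together form the tip links of hair cells in the ear.

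Nuclei came from the lumbar spinal cord of male and female ICR/CD-1 mice aged 8 to 11 weeks, an outbred stock with no stated genetic change, and were profiled by Drop-seq, which tags single mRNA molecules with unique molecular identifiers (UMIs). Stimulated mice were first accustomed to the surroundings, and no stimulus is named for the 9 control mice. The 10 formalin mice received 30 µl of a 2% solution, which the labels call both formalin and paraformaldehyde, in the sole of both hind paws, a standard painful stimulus, and the 5 rotarod mice ran on a rod that accelerated to 40 rotations per minute over 5 minutes. The labels name the tissue as brain and the protocol as lumbar cord without dorsal root ganglia. No source used here states how long after the stimulus the tissue was taken.

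The authors' annotation gave 13425 nuclei in 7 classes, among them 7103 neurons (3118 from control, 2392 from formalin and 1593 from rotarod mice), 2184 oligodendrocytes, 1224 astrocytes, 1839 meningeal or Schwann cells and 727 endothelial or vascular cells. Of the neurons, 4280 carried 1 of 43 populations in 8 families, whose codes were read as dorsal, mid or ventral (D, M, V) and excitatory or inhibitory (E, I). VC and VM were kept as codes. Total UMIs per mouse ran from 640279 to 3243587 in control, 549903 to 1707338 in formalin and 660286 to 3209063 in rotarod mice, and the 35 genes held 360432 of 31469475 UMIs. A level below is in CPM, the counts (UMIs) of a gene per 1000000 UMIs of the same nuclei, computed in each mouse and given as mean ± SD with n as the number of mice. Any 2 libraries shared at most 4 cell barcodes.

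Many of these genes are long, and nuclear RNA holds unspliced transcripts, from which long genes can give more UMIs. The median span from start to end was 128.3 kb for the members and 11.76 kb for all genes of the table with a span, and Cdh12 (1140 kb), Cdh13 (1041 kb) and Pcdh15 (1550 kb) were the longest. Levels of different genes are therefore ranked only per 100 kb of span. Sums and shares over members, lists of levels and the choice of members named use CPM not corrected for span.

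The members together made up 17252 ± 1739 CPM in oligodendrocytes (n = 23), 11404 ± 953 in neurons (n = 24), 10827 ± 1112 in astrocytes (n = 23), 5455 ± 971 in meningeal or Schwann cells (n = 24) and 3830 ± 1100 in endothelial or vascular cells (n = 23). Pcdh9, a delta protocadherin of the nervous system, alone supplied 68.8% of that sum in oligodendrocytes, 41.7% in astrocytes and 36.4% in neurons. Among these 5 classes, and with at least 50 UMIs required in the highest, 14 members were highest in neurons, 4 in oligodendrocytes, 5 in astrocytes, 1 in meningeal or Schwann cells and 3 in endothelial or vascular cells, while 8 had fewer UMIs. The classes were made from clusters of the same nuclei, so these differences between classes are a description and were not tested.

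**Figure D1:**
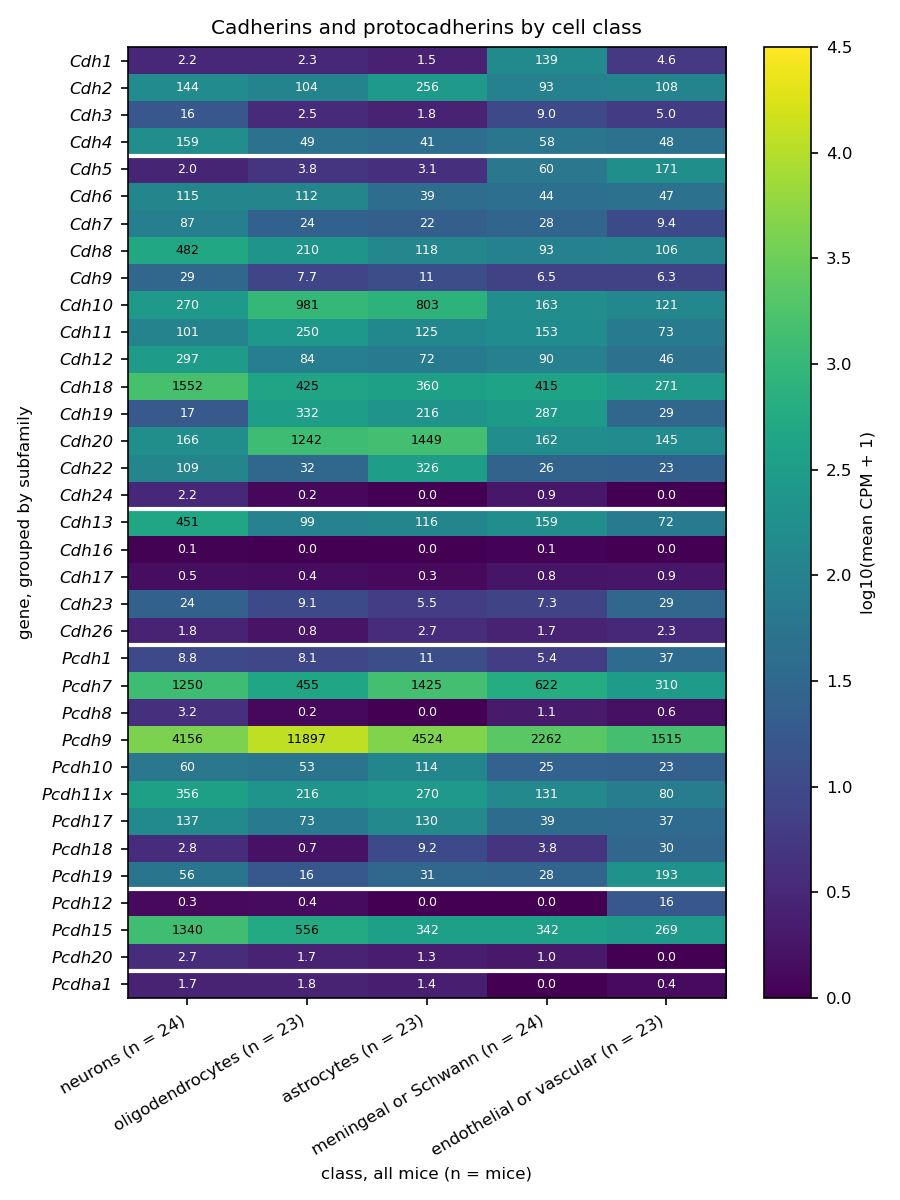
Mean level of each of the 35 members (rows) in the 5 classes with at least 23 mice (columns). Numbers are CPM, averaged over mice, and the colour is log10 of that level plus 1. Pcdh9 in oligodendrocytes is the brightest cell, at 11897 CPM, and Cdh1 stands out in meningeal or Schwann cells, at 139.

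Oligodendrocytes, the myelinating cells of the cord, were marked by Pcdh9. Its level there was 11897 ± 1655 CPM (n = 23; lowest 8792, highest 14449), against 4524 ± 677 in astrocytes and 4157 ± 483 in neurons, and it was higher in oligodendrocytes than in astrocytes in 23 of 23 mice. The lowest oligodendrocyte value thus lay above the highest neuronal value of 5039. Per 100 kb of span, Pcdh9 reached 1356 CPM in oligodendrocytes, above Cdh20 (547), Cdh10 (502) and Cdh19 (372). Cdh19, a type II cadherin known from Schwann cells and their precursors, was at 332 ± 104 in oligodendrocytes and 287 ± 139 in meningeal or Schwann cells, which did not differ beyond their spread, and at 17.1 in neurons. The type II genes Cdh10 (981 ± 177, against 803 ± 160 in astrocytes; higher in 18 of 23 mice) and Cdh11 (250 ± 67, against 153 in the next class; 22 of 23 mice) were also highest in oligodendrocytes.

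Most cadherins of astrocytes were also found in another class. Cdh20, a type II cadherin, was at 1449 ± 328 in astrocytes and 1243 ± 281 in oligodendrocytes, with the astrocyte value higher in 16 of 23 mice, and at 166 in neurons. Pcdh7, a delta protocadherin, was at 1425 ± 280 in astrocytes and 1250 ± 138 in neurons (20 of 23 mice). Cdh22 separated astrocytes more clearly: its 326 ± 121 (lowest 133, median 305, highest 648) stood against 109 ± 27 in neurons and was higher in 23 of 23 mice. Cdh2 (N-cadherin), the classical cadherin of neural tissue, was at 256 ± 85 in astrocytes and 144 in neurons (20 of 23 mice), and Pcdh10 at 114 ± 49 against 60.3 (21 of 23 mice).

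Cdh1 and Cdh5 were concentrated outside the neural classes. Cdh1 (E-cadherin), the adhesion protein of epithelia and of myelinating Schwann cells, was at 139 ± 62 in meningeal or Schwann cells (lowest 0 in 1 mouse, median 142, highest 246), 30.4-fold above the next of the 5 classes at 4.57. Cdh5 (VE-cadherin), which holds endothelial cells together, was at 171 ± 64 in endothelial or vascular cells (lowest 59.0, median 170, highest 325), 60.0 ± 35.3 in meningeal or Schwann cells and 1.97 in neurons. Pcdh19, an X-linked delta protocadherin better known from neurons, was also highest in endothelial or vascular cells, at 193 ± 60 against 55.6 ± 10.5 in neurons, a 3.47-fold difference seen in 23 of 23 mice. Pcdh1 was at 36.9 ± 38.8 in endothelial or vascular cells, with a spread as large as its mean. In meningeal or Schwann cells Pcdh9 was at 2262 ± 542, Pcdh7 at 622 ± 173, Cdh18 at 415 ± 129 and Pcdh15 at 342 ± 112. In endothelial or vascular cells they were at 1515 ± 575, 310 ± 190, 271 ± 125 and 269 ± 133. Per 100 kb of span, Cdh19 (321) stood above Pcdh9 (258) in meningeal or Schwann cells. Cdh5 (399) stood above Pcdh9 (173) in endothelial or vascular cells.

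In neurons, the type II cadherin Cdh18 was at 1552 ± 267 (n = 24; lowest 1064, median 1581, highest 1977), Pcdh15 at 1340 ± 136, Cdh8 at 482 ± 67 and Cdh13 at 451 ± 91. The next of the 5 classes stood at 425 for Cdh18, 556 for Pcdh15, 210 for Cdh8 (all oligodendrocytes) and 159 for Cdh13 (meningeal or Schwann cells). Per 100 kb of span the order in neurons was Pcdh9 (474), Pcdh7 (301), Cdh18 (168), Pcdh17 (144), Cdh10 (138) and Cdh8 (123), so the long genes Pcdh15 (86.4) and Cdh13 (43.4) ranked lower. The other members highest in neurons among the 5 classes were Pcdh11x (356 ± 56, against 270 in astrocytes), Cdh12 (297 ± 54, against 90.4), Cdh4 (159 ± 59, against 58.4), Cdh7 (86.7 ± 20.9, against 28.3), Cdh9 (29.3 ± 13.6, against 11.2), Cdh3 (16.0 ± 7.3, against 9.0) and, at about 3 CPM, Pcdh8 (3.16) and Pcdh20 (2.66). Pcdh17 (137 ± 22, against 130 in astrocytes) and Cdh6 (115 ± 33, against 112 ± 51 in oligodendrocytes) did not differ between neurons and the next class beyond their spread.

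Markers of one class were also counted in the others, and give a scale for low levels. The 7 neuronal markers, at 3276 ± 429 in neurons, stood in oligodendrocytes at 22.1% of their neuronal level, in astrocytes at 21.4% and in meningeal or Schwann cells at 20.5%. Cdh18 in oligodendrocytes was at 27.4% of its neuronal level and in astrocytes at 23.2%, close to these shares, whereas Pcdh15 in oligodendrocytes was at 41.5%. Markers of oligodendrocytes stood in neurons at 7.97% of their own level, and Pcdh9 in neurons at 34.9%. In meningeal or Schwann cells these markers stood at 22.9% and Pcdh9 at 19.0%, and in endothelial or vascular cells at 12.3% and 12.7%. Cdh18 and Pcdh15 stood at 26.7% and 25.5% of their neuronal level in meningeal or Schwann cells. In endothelial or vascular cells they stood at 17.5% and 20.1%, beside 15.5% for neuronal markers. Pcdh7 stood in the same classes at 43.7% and 21.8% of its astrocyte level, and astrocyte markers at 15.7% and 23.7%. Markers of astrocytes stood in neurons at 3.82%, and Pcdh7 at 87.8%, Cdh22 at 33.5% and Cdh20 at 11.5% of their astrocyte level. Cdh1 lay at 1.12% to 3.29% in the 4 other classes, below the Schwann cell markers in each. Median UMIs per nucleus were 2214 in neurons, 1092 in oligodendrocytes and 1214.5 in astrocytes.

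Too few mice reached 10 nuclei for a full account of the rarest classes. In oligodendrocyte precursors (6 mice) Pcdh9 was at 4509 ± 594, Pcdh15 at 1716 ± 440 and Pcdh7 at 1333 ± 488, but neuronal markers also summed to 1792 there. Pcdh15 was thus higher than its 1340 in neurons, as were Pcdh11x (579 ± 543), Pcdh17 (245 ± 214) and Cdh13 (456 ± 279, against 451), all with spreads that reached the neuronal mean, and Cdh18 was at 647 ± 230, above the 425 of oligodendrocytes. In microglia (4 mice) Pcdh9 was at 5129 ± 3362, Cdh18 at 617 ± 372, Cdh12 at 179 ± 128 and Cdh1 at 40.3 ± 61.0, while oligodendrocyte markers summed to 7400 and microglial markers to 197, so these values cannot be assigned to microglia.

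Among neuron families of control mice, 22 members had at least 200 UMIs in control neurons, and 19 of them differed at least 2-fold between their highest and lowest family, as did 62.9% of all 6641 genes with as many UMIs. For 6 of the 22 (Cdh4, Cdh8, Cdh12, Cdh13, Cdh18 and Cdh23) the values of the highest and the lowest family did not overlap between mice, as for 8.21% of the 6641 genes. Highest and lowest were picked for each gene. The families were defined by clustering the same nuclei, so neither the order nor the tests below are independent evidence for them. Family means rest on 9 control mice for DE, DI, MI and VC, 8 for VE and VI, 7 for ME and 5 for VM.

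**Figure D2:**
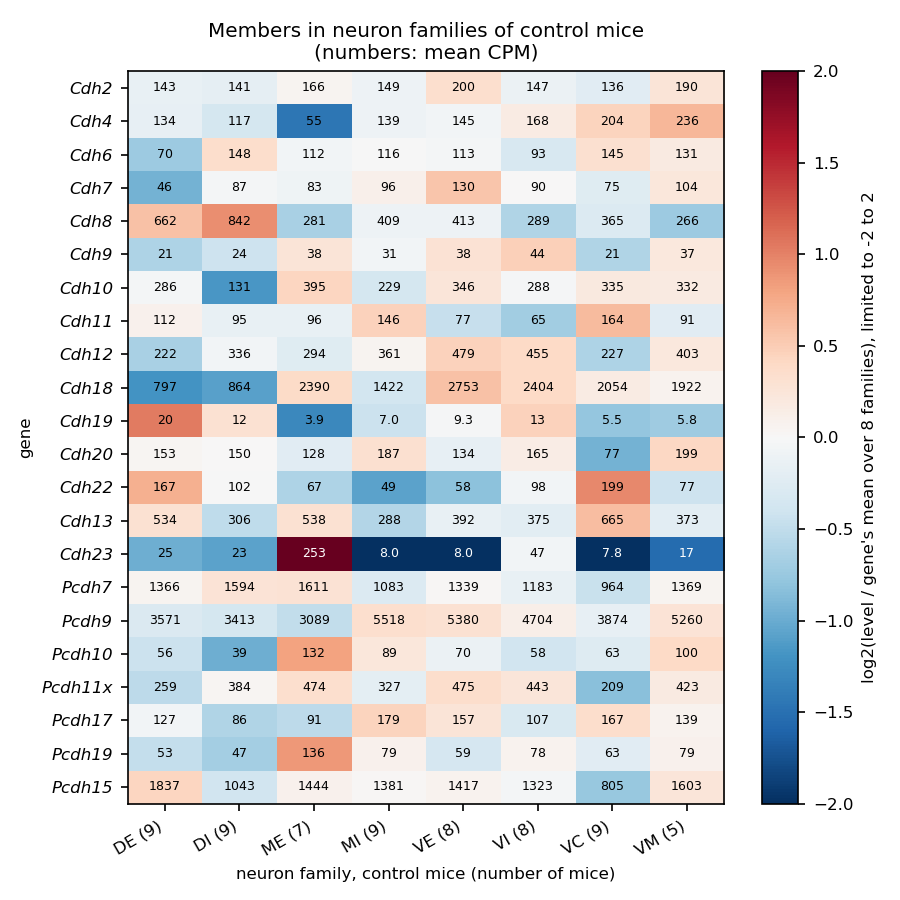
Mean level of 22 members (rows) in the 8 neuron families of control mice (columns). Numbers are CPM and the colour is log2 of the level over the gene's mean across the 8 families, limited to -2 and 2. Cdh18 runs from 797 in DE to 2753 in VE, and Cdh8 runs the other way, from 842 in DI to 266 in VM.

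The type II cadherins Cdh18 and Cdh8 divided the cord along its dorsal to ventral axis in opposite directions. Per mouse, Cdh18 ran from 598 to 984 CPM (median 883) in the dorsal families DE and DI together and from 1751 to 2940 (median 2795) in the ventral families VE and VI, so that no dorsal value reached a ventral one. The difference was -1.55 on the log2 scale (SE 0.10, edgeR quasi-likelihood test with mouse as a block, Benjamini-Hochberg adjusted p = 2.473e-24, lower in 8 of 8 mice). Cdh8 ran from 596 to 931 (median 774) in dorsal and from 237 to 475 (median 364) in ventral families, a log2 difference of 1.18 (SE 0.14, adjusted p = 6.6e-10, higher in 8 of 8 mice). Its values in the 2 sides did not overlap either.

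In this dorsal against ventral comparison 10 of the 20 members tested passed an adjusted p of 0.05 in edgeR, 3 higher and 7 lower in dorsal families. Over all 3072 genes tested, 36.1% passed (17.7% higher and 18.4% lower), so calls were common. Nuclei of the families differed in depth, with a median of 2188.5 UMIs in DE, 2528 in DI, 6192.5 in VE and 3142 in VI, whose part in these differences was not tested. Besides Cdh8, Cdh22 (124 to 183 against 41.6 to 101, log2 0.69, SE 0.17, adjusted p = 0.0005044) and Pcdh7 (log2 0.31, SE 0.09, adjusted p = 0.0043) were higher in dorsal families, each in 8 of 8 mice. Lower with Cdh18 was Pcdh9, at 3575 ± 419 against 5042 ± 557 (log2 -0.46, SE 0.10, adjusted p = 0.0001293), with values that did not overlap. The other dorsal decreases were Cdh12 (log2 -0.64), Cdh10 (-0.61), Cdh7 (-0.58), Pcdh10 (-0.55) and Pcdh11x (-0.46), with edgeR adjusted p from 1.553e-05 for Cdh10 to 0.04394 for Pcdh10.

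Several calls were lost when mice were left out. Without the 3 control mice whose titles carry the mark cx, 5 of the 10 remained called, 2 higher and 3 lower, while the count over all genes fell from 1109 to 672. Lost were Cdh22 (log2 0.63, edgeR adjusted p = 0.0571), Cdh12 (-0.54, 0.0986), Cdh7 (-0.38, 0.332), Pcdh10 (-0.47, 0.339) and Pcdh11x (-0.13, 0.665). Pcdh10 lost the call in 11 of 16 alternatives: in DESeq2 (adjusted p = 0.0555), with the span trend removed (edgeR 0.0713), without the filter (0.0777), without the mouse block (0.1265), and when control mouse 1, 4, 6, 7, 8 or 9 was left out (edgeR adjusted p from 0.052 to 0.192). Also lost were Cdh7 (edgeR adjusted p = 0.0908) and Pcdh11x (0.0798) without control mouse 7. Cdh11 passed only without control mouse 6 (log2 0.57, edgeR adjusted p = 0.03084). Removing a trend with gene span took Pcdh7 to an edgeR adjusted p of 0.0736.

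Between the dorsal excitatory family DE and the dorsal inhibitory family DI, 8 of 20 members passed in edgeR, against 13.5% of all genes. Higher in DE were 5 members, against 7.26% of all genes, led by Cdh10, a type II cadherin. Its values ran from 122 to 446 (median 294) in DE and from 34.8 to 201 (median 108) in DI, a log2 difference of 1.04 (SE 0.17, adjusted p = 9.008e-07, higher in 9 of 9 mice). The ranges overlapped even though each mouse moved the same way. Cdh13 (534 ± 92 against 306 ± 87, log2 0.81, adjusted p = 3.331e-05) and Pcdh15 (1837 ± 391 against 1043 ± 323, log2 0.80, adjusted p = 1.121e-05) were higher in 8 of 9 mice, and Cdh22 (log2 0.83, adjusted p = 0.00206) in 7 of 9. Pcdh17 (log2 0.65, edgeR adjusted p = 0.03416) lost the call in 8 of 16 alternatives, among them leaving out control mouse 2, 3, 6, 7 or 8.

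Higher in DI were 3 members, against 6.25% of all genes. Cdh6, a type II cadherin, was at 148 ± 67 in DI and 69.8 ± 31.4 in DE (log2 -1.06, SE 0.27, edgeR adjusted p = 0.002108, lower in DE in 9 of 9 mice). Cdh7 (log2 -0.86, adjusted p = 0.01244) and Pcdh11x (log2 -0.57, adjusted p = 0.02734) followed, and lost the call in 2 and 7 of 16 alternatives, among them leaving out control mouse 1 for Cdh7 and control mouse 2, 3 or 9 for Pcdh11x. Cdh10 was thus higher in DE than in DI, yet lower in the dorsal than in the ventral families: its DI level of 131 ± 55 lay below VE (346 ± 68) and VI (288 ± 96), while DE (286 ± 87) was close to VI.

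No member passed between ventral excitatory and inhibitory neurons. Between VE and VI, 0 of 20 members passed in edgeR and 0 in DESeq2, against 1.4% of all genes in edgeR (0.586% higher and 0.814% lower), and 2 members had an unadjusted p under 0.05, as had 13.1% of all genes. The smallest p-values belonged to Cdh23 (log2 -1.70, edgeR adjusted p = 0.1538), Cdh22 (log2 -0.65, adjusted p = 0.2319) and Cdh8 (log2 0.42, adjusted p = 0.3999).

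Of other genes of cadherin adhesion (catenins, Fat, Dchs, Celsr, desmosomal cadherins, calsyntenins, Cdhr genes and partners; 36 in the table), 12 were tested here. In dorsal against ventral families 3 of the 12 were called higher and 0 lower, against 17.7% and 18.4% of all genes. They were Fat4, a giant cadherin that binds Dchs1 (log2 1.56, edgeR adjusted p = 4.129e-08), Ctnna3 (0.41, 0.003807) and Ctnnd2 (0.26, 0.01706). In DE against DI 1 was called higher and 3 lower, against 7.26% and 6.25% of all genes: Fat4 (1.40, edgeR adjusted p = 1.731e-05), and Clstn2 (-0.70, 0.003203), Clstn3 (-0.59, 0.007391) and Fat3 (-0.57, 0.001112).

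Further members peaked in other families. Cdh12 was at 479 ± 89 in VE and 222 ± 36 in DE (lowest VE mouse 378, highest DE mouse 271), Cdh4 (R-cadherin) at 236 ± 62 in VM and 55.2 ± 54.2 in ME, and Cdh13 at 665 ± 210 in VC and 288 ± 44 in MI. Cdh23, the tip-link partner of Pcdh15, was at 253 ± 203 in ME (lowest 41.1, median 249, highest 660) and at 46.8 ± 76.9 in the next family, VI. ME held only 55 control nuclei in a single population and 33 Cdh23 UMIs, so this value is coarse. Pcdh19 was likewise highest in ME (136 ± 73) and lowest in DI (46.7).

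For the remaining members the values of the highest and the lowest family overlapped between mice. Pcdh9 ran from 5518 ± 1099 in MI to 3089 ± 969 in ME, a 1.79-fold range, Pcdh7 from 1611 ± 396 in ME to 964 ± 306 in VC (1.67-fold), and Cdh2 from 200 ± 70 in VE to 136 in VC (1.47-fold). Pcdh15 was highest in DE and lowest in VC (805 ± 384), Pcdh11x highest in VE (475 ± 229) and lowest in VC (209), and Cdh20 highest in VM (199 ± 62) and lowest in VC (77.4). Cdh11 was highest in VC (164 ± 64) and lowest in VI (65.2), Cdh22 in VC (199 ± 179) and MI (48.6), Cdh7 in VE (130 ± 72) and DE (46.3), and Cdh6 in DI and DE. Cdh10 was highest in ME (395 ± 148) and lowest in DI, Pcdh10 highest in ME (132 ± 173) and lowest in DI (38.6), Pcdh17 highest in MI (179 ± 97) and lowest in DI (86.4), Cdh9 highest in VI (44.0) and lowest in DE (20.5), and Cdh19 highest in DE (19.5) and lowest in ME (3.85).

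Single populations reached higher levels than the families. Among 31 populations with at least 3 control mice, Pcdh15 reached 5145 ± 1726 CPM in DE-11 (n = 8; 2697 to 7232), 4.60 times its median over populations, with 3627 ± 846 in DE-2 and 426 in DE-7, the lowest. Cdh13 was highest in that same DE-7, at 1865 ± 408 (n = 4), 4.50 times its median, followed by DE-1 (1413 ± 352), and lowest in DI-3 (36.9). Cdh18 was highest in VE-2 (3433 ± 755, n = 3) and DE-15 (3092 ± 320, n = 5) and lowest in DE-6 (187), so a dorsal excitatory population ranked second. DE-15 also held the highest Cdh4 (662 ± 242, 4.86 times the median) and the lowest Cdh8 (132 ± 39).

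Other populations led for other members. Pcdh7 was highest in DE-10 (3656 ± 367, n = 4) and DI-8 (2815 ± 431, n = 6), Cdh10 in DE-5 (883 ± 264, n = 6) and VE-1 (491 ± 86, n = 3), Cdh12 in DI-8 (3.39 times its median, n = 6) and DI-9 (792 ± 355), and Cdh7 in DI-7 (253 ± 95, n = 6) and VE-2 (161). Cdh2 was highest in DE-1 (479 ± 128, n = 3) and VI-3 (250 ± 246), Cdh6 in DI-3 (369 ± 188, n = 6) and DE-6 (282 ± 162), and Pcdh11x in DI-7 (710 ± 318, n = 6) and DI-8 (631 ± 226). Cdh4 was second in DE-7 (423 ± 127). Members with large spreads between mice were Cdh20 in DE-6 (448 ± 364) and DI-6 (288 ± 71), Cdh11 in DE-15 (240 ± 187) and DE-13 (215 ± 209), Cdh9 in DE-13 (102 ± 125) and VI-5 (80.3 ± 15.2), and Cdh23 in ME-1 and DI-4 (226 ± 257). Cdh22 led in DE-9 (308 ± 117) and DE-11 (290 ± 111), Pcdh17 in DE-9 (283 ± 132) and MI-3 (282 ± 109), and Pcdh19 in ME-1 and DE-1 (124 ± 108). Pcdh10 led in DE-16 (156 ± 67, from 5 UMIs) and ME-1 (132 ± 173). Cdh19 led in DE-5 (57.9 ± 71.9, from 6 UMIs) and DE-14 (36.2 ± 43.1, from 6 UMIs), so these leads of Pcdh10 and Cdh19 are coarse. Of the 22 members Pcdh9 rose least above its median, 1.49-fold, at 6077 ± 1329 in VE-4 and 6026 ± 742 in VI-5, and was lowest in DE-1 (1777).

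The order was read again in the pooled nuclei of formalin and rotarod mice, which the control order did not use, although the same clustering defined their populations. The population highest in control mice was again highest for 12 of the 22 members and among the first 3 for 19. The highest family was again highest for 9 and among the first 2 for 13. Pooled levels there were 5454 for Pcdh15 in DE-11 (median over populations 1301), 4117 for Pcdh7 in DE-10 (median 1101), 2092 for Cdh8 in DI-3 (median 507) and 1634 for Cdh13 in DE-7 (median 469). The order was not repeated for others: VE-2 ranked 11 for Cdh18, ME-1 ranked 12 for Pcdh19, and VM, the highest family for Cdh4 in control mice, ranked 7 of 8 at 100.2.

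Cdh3 (P-cadherin), a type I cadherin of epithelia, was scarce in neurons as a whole and higher in DI, mainly in population DI-6. It is described after its values were seen. In control mice it was at 70.8 ± 35.2 CPM in DI (lowest 32.3, median 62.3, highest 141) and 11.2 ± 10.1 in DE (highest 33.2), with 102 and 16 UMIs, and all 7 mice with ME nuclei were at 0. It did not pass the expression filter of the main test. Without that filter the log2 difference of DE from DI was -2.79 (edgeR adjusted p = 3.235e-10), and DESeq2 gave -2.93 (adjusted p = 2.224e-06). Dorsal families exceeded ventral ones in 8 of 8 mice, at 19.6 to 75.0 against 0 to 6.63. The log2 difference was 3.33 without the filter (edgeR adjusted p = 2.038e-10) and 3.23 in DESeq2 (adjusted p = 8.44e-08). Over all genes, DE against DI gave 577 calls without the filter and 581 in DESeq2. Dorsal against ventral gave 1705 and 1881. Cdh3 was picked for its values in these same families, so its p-values are not independent evidence of the difference. DI-6 had the highest level, at 293 ± 130 (n = 5, 191 to 447). DI-6 and DI-5 together held 183 of the 300 Cdh3 UMIs in nuclei with a population over all mice (61.0%), 153 of them in DI-6. In control mice DI-5 was at 47.7 ± 67.5 (n = 2), DI-7 at 76.5 ± 46.9 (n = 6) and DE-7 at 39.6 ± 47.8 (n = 4). DI-3 held 0 Cdh3 UMIs.

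Cdh8 peaked in a single inhibitory population. In DI-3 it was at 2260 ± 468 (n = 6; 1731 to 3122), 4.37 times its median over populations, and DE-7 was next at 1244 ± 856. Cdh8 lies on chromosome 8 of GRCm38, from 99024471 to 99416471 on the minus strand, and starts 170 bases from A330008L17Rik (99416642 to 99733438, plus strand), an uncharacterised gene that is transcribed in the opposite direction. The sequence between and around the 2 starts is shown because both genes begin there. It covers chr8:99416472-99416721 (RefSeq, GRCm38.p6), is written 5′ to 3′ on the Cdh8 strand up to the base before the Cdh8 start, and has in capitals the 170 bases between the starts, while the first 80 bases lie in A330008L17Rik.
Cdh8 upstream: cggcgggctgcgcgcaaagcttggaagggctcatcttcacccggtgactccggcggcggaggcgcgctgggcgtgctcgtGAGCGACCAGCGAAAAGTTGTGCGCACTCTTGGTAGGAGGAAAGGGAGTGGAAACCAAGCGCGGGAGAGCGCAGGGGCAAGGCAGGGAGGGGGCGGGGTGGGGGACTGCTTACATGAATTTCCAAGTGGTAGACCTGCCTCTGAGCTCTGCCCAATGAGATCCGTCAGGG

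This stretch was 64.4% G or C with 20 CpG pairs, above the medians of 52.4% and 6 over the 32851 promoters of the same table and length. Searched on both strands, it held 1 CCAAT, present in 33.8% of those promoters, and 1 GGGCGG, present in 32.7%, both on the Cdh8 strand and apart from each other. It held no TAATTA (4.84%), CAGGTG (17.2%) or TATAAA (12.4%). A promoter entry existed for 21 of the 35 members.

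A330008L17Rik varied with Cdh8 across neuron populations. In DI-3 it was at 1620 ± 391 CPM, against 374 ± 80 in all neurons and 77.7 in oligodendrocytes. Across 43 populations the 2 genes' log2 levels had a Pearson correlation of 0.78 over all mice, 0.81 in control mice (41 populations) and 0.73 in formalin and rotarod mice (42 populations), where the points share libraries and depth. Among 8263 genes compared, A330008L17Rik had the highest correlation with Cdh8, followed by Ebf1 (0.63), a transcription factor, Gm15680 (0.61), Tenm3 (0.60), a teneurin adhesion protein, and Kcnd3 (0.60), a potassium channel. Gm15680 (99397213 to 99506770, minus strand) overlaps both Cdh8 and A330008L17Rik, and the counting strand is not given, so reads of these 3 genes cannot be told apart where they overlap. The likeness was not complete: in DE-6 Cdh8 was at 1008 and A330008L17Rik at 157 ± 143, and in DE-2 they were at 971 and 295. In dorsal against ventral families A330008L17Rik was higher by 0.74 (log2, SE 0.18, edgeR adjusted p = 0.0009288).

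**Figure D3:**
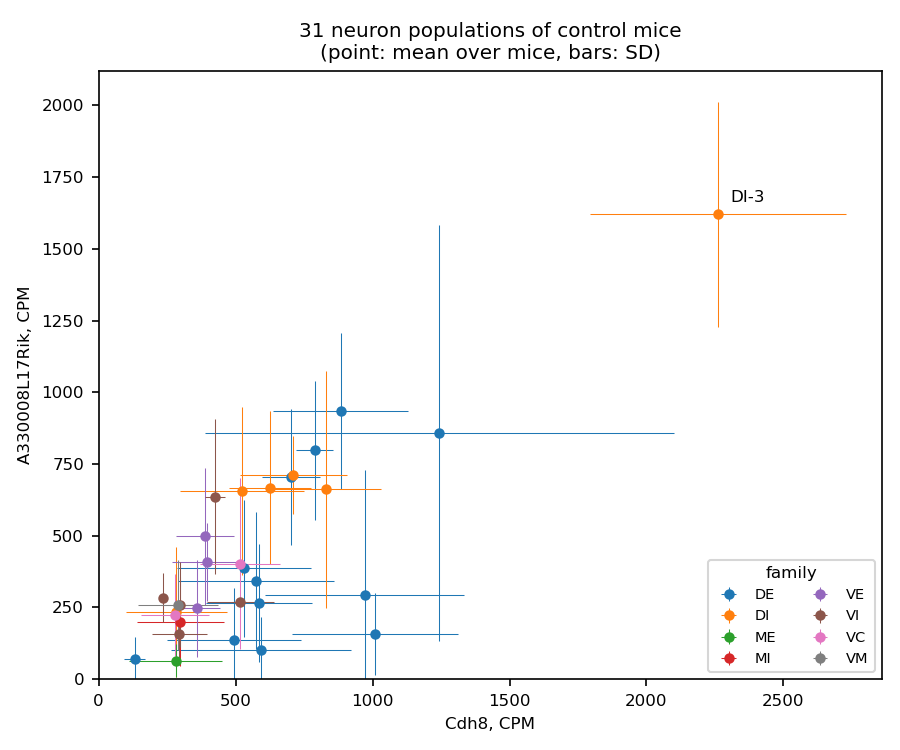
Level of Cdh8 (horizontal axis) against A330008L17Rik (vertical axis), both in CPM, in 31 neuron populations of control mice. Each point is a population mean with SD over mice as bars, and DI-3, at 2260 and 1620, lies far from the other populations.

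For the other type II cadherins the highest correlations by the same measure ran from 0.53 to 0.78. Cdh18 was nearest to Snrpn (0.78), Ctif (0.78) and Lepr (0.76), Cdh7 to Adam23 (0.74) and Epha4 (0.70), Cdh12 to Gm30382 (0.70) and Igsf9b (0.67), Cdh9 to Dab1 among others (0.70), Cdh19 to Rab3gap2 (0.67), Cdh10 to Diaph2 (0.65), Cdh6 to Grik4 (0.60), Cdh11 to Rps6ka5 (0.57), Cdh22 to Prkg2 (0.55) and Cdh20 to Cgnl1 (0.53). Cdh6, Cdh9, Cdh10, Cdh12 and Cdh18 lie on chromosome 15, and their 10 pairs had correlations from 0.23 to 0.64, highest for Cdh10 with Cdh12. The 20 member pairs on a shared chromosome, which include those 10, had a median of 0.34 and the 211 other pairs a median of 0.11. Same-chromosome pairs outside chromosome 15 ran from -0.23 (Cdh22 with Cdh4) to 0.42 (Pcdh17 with Pcdh9), so the higher median rests on chromosome 15. The lowest of all pairs was Cdh8 with Pcdh19, at -0.53, and Cdh8 with Cdh18 stood at -0.49.

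The tests of the stimuli called 1 member in neurons and 0 in the other classes. In neurons, 0 of 23 members tested passed in formalin against control mice (edgeR; 0% of 9103 genes) and 0 of 23 in rotarod against control mice (0% of all genes), and DESeq2 also called 0 members in both. Unadjusted p-values under 0.05 were found for 4 and 2 members, and for 8.41% and 8.59% of all genes. Between formalin and rotarod mice 1 member passed, against 2.15% of all genes (196 of 9103), and 6 members had an unadjusted p under 0.05, as had 17.8% of all genes. All 3 comparisons share groups of mice, so they are not independent of each other. On simulated neuron counts for formalin against control, 38.4% of 1.5-fold and 84.4% of 2-fold changes were recovered, with 11 false calls. Each gene and sample was drawn independently there, without the trend on gene span described below, so these shares need not hold in the real data.

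**Figure D4:**
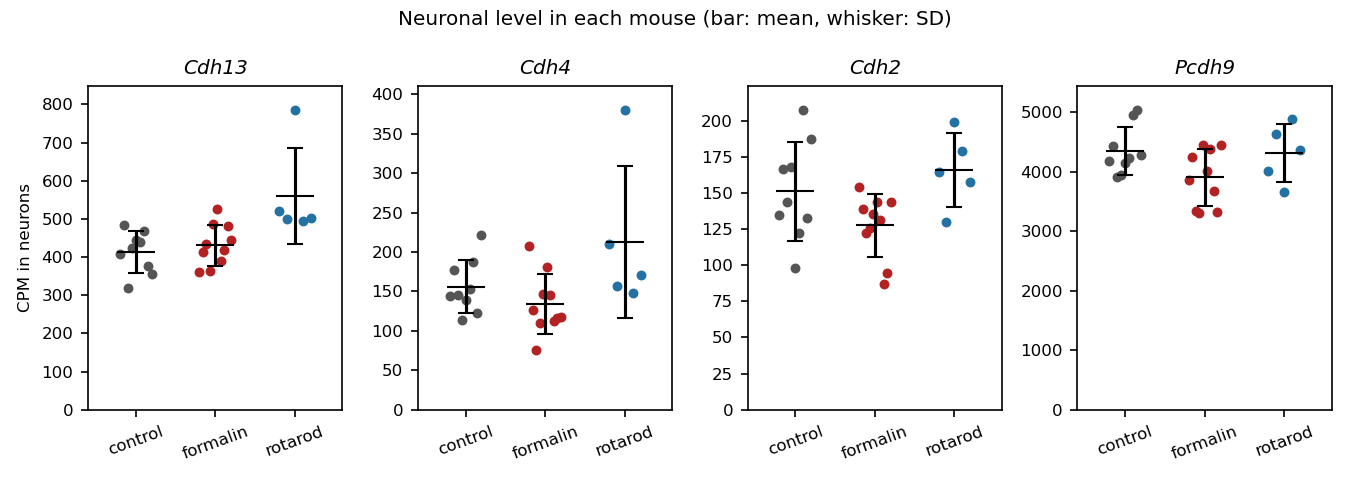
Level of Cdh13, Cdh4, Cdh2 and Pcdh9 in neurons of each mouse (vertical axes, CPM) in the 3 groups, with mean and SD. For Cdh13 and Cdh4 the same rotarod mouse, number 3, lies far above the other 4, at 785 and 380.

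The member that passed was Cdh13, a lipid-anchored cadherin with roles in axon growth. Rotarod mice 1 to 5 had 522, 499, 785, 495 and 502 CPM, against a lowest, median and highest of 361, 426 and 525 in formalin and of 318, 424 and 484 in control mice. All 5 rotarod mice lay above every control mouse, while the formalin range reached into the rotarod range. The log2 difference of formalin from rotarod was -0.47 (SE 0.12, edgeR adjusted p = 0.02221), and rotarod exceeded control by 0.46 (SE 0.12, adjusted p = 0.1232). Without rotarod mouse 3 the difference from formalin was -0.34 (edgeR adjusted p = 0.144), the 4 others standing at 504 ± 12. With a trend on gene span removed it was -0.20 (edgeR adjusted p = 0.5031), and with formalin samples 1 to 5 merged with 6 to 10 it was -0.49 (adjusted p = 0.0885). With the sample number as a replicate block over numbers 1 to 5 it was -0.50 (edgeR adjusted p = 0.07488), and -0.51 (adjusted p = 0.08372) in the same samples without the block.

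The Cdh13 level was also higher in rotarod mice among neurons without a population (593 ± 191, against 381 ± 68 in control and 389 ± 78 in formalin mice). In DE it was at 534 ± 92, 595 ± 250 and 718 ± 165 in control, formalin and rotarod mice, and in VC, its highest family, at 665 ± 210, 885 ± 316 and 1152 ± 620. In 3 families the rotarod level was close to that of formalin mice: VE (392 ± 121, 383 ± 96 and 383 ± 181 in control, formalin and rotarod mice), ME (538.5 ± 260, 437 ± 143 and 443 ± 110, n = 7, 2 and 2) and DI (306 ± 87, 401 ± 313 and 404 ± 89). Rotarod mouse 3 had 2232 in VC from 5 nuclei and 40 UMIs, 949 in DE and 392 in DI. Without this mouse the rotarod level in VC was 881.5 ± 161 (n = 4), close to the 885 of formalin mice. It was then 660 ± 118 (n = 4) in DE and 538 ± 170 (n = 4) in neurons without a population. The share of neurons with a population was 63.9 ± 11.6% in control, 52.1 ± 18.6% in formalin and 58.2 ± 18.6% in rotarod mice, and its part in the difference was not tested.

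Next by p between formalin and rotarod mice were the type I cadherins Cdh4 and Cdh2. Cdh4 was at 211, 157, 380, 148 and 170 in rotarod mice 1 to 5, and at 134 ± 38 in formalin (76 to 207, median 122) and 156 ± 34 in control mice. Its log2 difference of -0.71 (SE 0.21) had an edgeR adjusted p of 0.0713 and passed in DESeq2 (-0.74, adjusted p = 0.02008) and without the expression filter (-0.73, edgeR adjusted p = 0.0006703), and without formalin mouse 1 (-0.78, adjusted p = 0.03476). Cdh2 was at 128 ± 22 in formalin, 166 ± 26 in rotarod and 151 ± 34 in control mice (log2 -0.46, SE 0.15, edgeR adjusted p = 0.09697). It passed with only the 2 groups compared (-0.45, edgeR adjusted p = 0.04538). In formalin against control the smallest p-values were those of Pcdh9 (3904 ± 476 against 4350 ± 401, log2 -0.22, edgeR adjusted p = 0.5229), Cdh2 (-0.32, 0.5371) and Cdh12 (-0.27, 0.5448). In rotarod against control they were those of Cdh13, Cdh20 (-0.35, edgeR adjusted p = 0.5583) and Cdh4 (0.39, 0.6251).

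The members leaned together in a direction that went with gene length. In formalin against control neurons 20 of 23 members had a negative log2 difference (median -0.14), in rotarod against control 17 were positive (median 0.05), and in formalin against rotarod 17 were negative (median -0.15), while the medians of all genes lay between 0.00 and 0.01. Across all tested genes, the log2 difference correlated with log10 span at -0.23, 0.35 and -0.45 in these 3 comparisons, a description in which genes are not independent. Refitted with the span trend removed, the medians of the members were -0.05, -0.04 and 0.01, and the 196 calls over all genes between formalin and rotarod became 7.

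**Figure D5:**
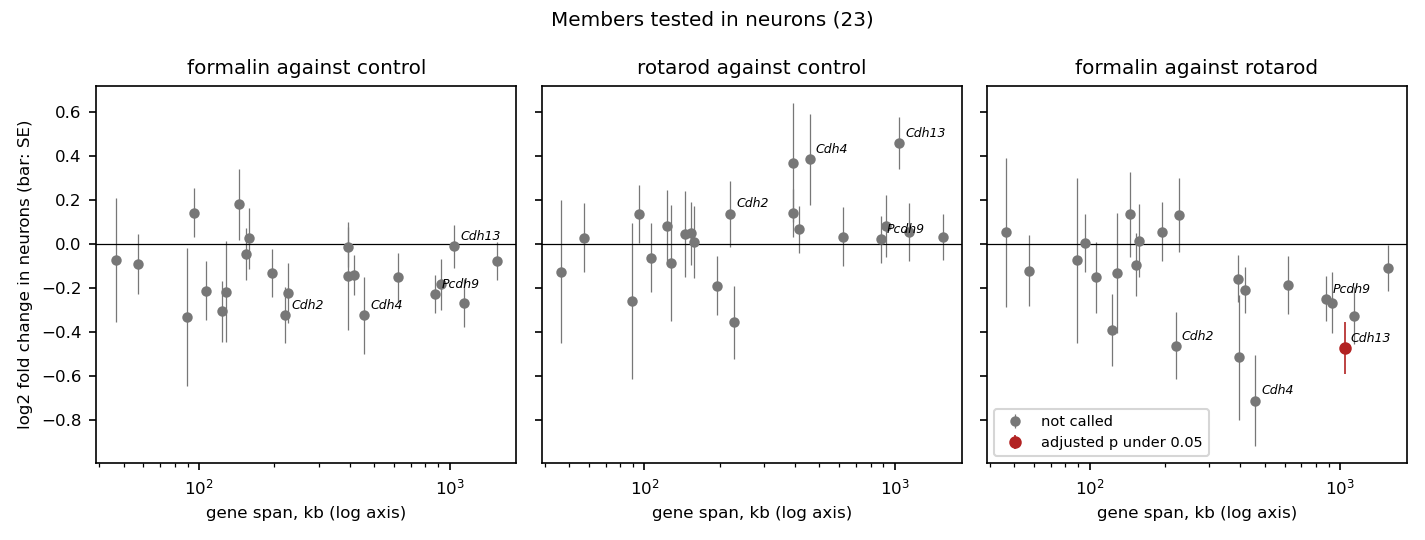
Log2 difference of 23 members in neurons (vertical axis, bars are SE) against gene span in kb (horizontal log axis) for the 3 comparisons of groups. Members with an edgeR adjusted p under 0.05 are red, which is Cdh13 alone, in formalin against rotarod.

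Outside neurons no member passed in any of the 12 comparisons, in edgeR or in DESeq2. Of all genes, edgeR called 0%, 0.0317% and 0.475% in oligodendrocytes for formalin against control, rotarod against control and formalin against rotarod. In the same order it called 0%, 0.388% and 1.33% in astrocytes, 0%, 0.0917% and 0.0611% in meningeal or Schwann cells, and 0% in all 3 comparisons of endothelial or vascular cells. An unadjusted p under 0.05 was reached in the same order by 2, 3 and 1 of 15 members in oligodendrocytes (5.64%, 9.97% and 14.3% of all genes) and by 1, 1 and 1 of 15 in astrocytes (4.55%, 8.37% and 12.3%). It was reached by 1, 5 and 2 of 15 in meningeal or Schwann cells (5.71%, 7.3% and 9.23%) and by 0, 1 and 1 of 7 in endothelial or vascular cells (4.2%, 9.6% and 9.6%). In rotarod against control meningeal or Schwann cells 14 of 15 members had a negative difference (median log2 -0.34), beside a median of -0.00 over all genes. After a trend on gene span was fitted to these log2 differences, the members' residuals had a median of -0.17. This is not a refit as in neurons. Neuronal markers summed there to 694.9 CPM in control and 514.8 in rotarod mice, and their part was not tested.

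The values nearest to a call outside neurons belonged to Cdh22 and Pcdh9. Cdh22 in astrocytes was at 485 ± 105 in rotarod mice (n = 5; 357 to 648), 281 ± 80 in control (n = 8; 162 to 380) and 281 ± 88 in formalin mice (n = 10; 133 to 410), with overlapping ranges. The log2 difference of formalin from rotarod was -0.76 (SE 0.23, edgeR adjusted p = 0.09929) and that of rotarod from control 0.75 (SE 0.24, adjusted p = 0.2969). Neuronal markers summed in these astrocytes to 740 CPM in control, 777 in formalin and 480 in rotarod mice, and their part was not tested. Pcdh9 in endothelial or vascular cells was at 923 ± 336 in rotarod, 1642 ± 587 in control and 1717 ± 476 in formalin mice (formalin against rotarod log2 0.90, SE 0.24, edgeR adjusted p = 0.2045). It passed only when rotarod mouse 5 was left out (1.16, edgeR adjusted p = 0.01625). Neuronal markers there were at 534, 540 and 398 in control, formalin and rotarod mice, and their part was not tested.

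The members with the 3 smallest p-values in each other comparison were further from a call. In oligodendrocytes, formalin against control, they were Pcdh15 (log2 -0.39), Cdh19 (0.45) and Cdh6 (0.44), with edgeR adjusted p from 0.8544 to 0.8794. Rotarod against control gave Pcdh15 (-0.47), Pcdh17 (-0.84) and Pcdh7 (-0.54), from 0.4436 to 0.4875, and formalin against rotarod gave Cdh6 (0.68), Cdh12 (0.59) and Cdh8 (-0.35), from 0.2909 to 0.5378. In astrocytes, formalin against control gave Cdh20 (-0.34), Cdh8 (-0.46) and Cdh18 (-0.35), all at 0.9344. After Cdh22, rotarod against control gave Cdh11 (-0.68) and Pcdh15 (-0.59), and formalin against rotarod gave Cdh2 (-0.49) and Cdh11 (0.61).

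In meningeal or Schwann cells, formalin against control gave Cdh13 (-0.52), Cdh11 (-0.48) and Cdh20 (-0.43), with edgeR adjusted p from 0.8528 to 0.8676. Rotarod against control gave Cdh5 (-1.12), Cdh20 (-0.66) and Cdh2 (-0.69), from 0.5456 to 0.6369, and formalin against rotarod gave Cdh2 (0.75), Pcdh9 (0.40) and Cdh5 (0.80), from 0.4374 to 0.5802. In endothelial or vascular cells, formalin against control gave Pcdh15 (-0.49), Cdh18 (-0.22) and Cdh20 (0.16), all at 0.999. Rotarod against control gave Pcdh9 (-0.83, edgeR adjusted p = 0.3836), Pcdh7 (-0.64) and Cdh20 (-0.68), and formalin against rotarod gave, after Pcdh9, Cdh20 (0.84) and Pcdh7 (0.53). Of the other genes of cadherin adhesion, 0 passed in any comparison of groups in edgeR.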

How the data were processed

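The authors deposited raw UMI counts per gene and nucleus, with a table of each nucleus's class and population. The submitters' processing notes name the builds mm10 and GRCm38. The aligner and the use of introns and strand are unstated (not given in the sources used here). Doublets were not called again. Counts were summed per mouse and class (at least 10 nuclei) or per control mouse and family (at least 5 nuclei) and tested in R 4.3.3 by the quasi-likelihood test of edgeR 4.0.16 (TMM scaling, expression filter, robust), Benjamini-Hochberg adjusted at 0.05. 1 model held all 3 groups, and families were compared with the mouse as a block. The labels call the samples separate mice. Levels used Python 3.11.15, numpy 2.4.6, pandas 2.3.3 and scipy 1.17.1, and figures matplotlib 3.10.9. Spans come from GENCODE M21.

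The rule named the 5 members with the highest CPM in each class and those peaking there with at least 50 UMIs. In families and populations it named members with at least 200 UMIs in control neurons, and in comparisons those called, or else the 3 with the smallest p. The members and lists were chosen with earlier results of these data known.

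Alternatives were DESeq2 1.42.0, its size factors in edgeR, no filter, more nuclei per mouse, only the 2 groups compared, no cx control mice, no mouse block, a removed span trend, merged formalin samples, a replicate block and leaving out each mouse. The same samples without the block, and the family and population order in stimulated mice, were added after seeing the data. Sample numbers did not pair formalin with rotarod mice: over 9103 genes same-numbered samples had a mean correlation of deviations of -0.02 (lowest -0.11). Formalin samples numbered n and n + 5 deviated together (mean 0.17, lowest 0.09, all 10 closest to that sample). They share no cell barcodes, but only 24 of all 276 library pairs share any. Barcodes therefore cannot tell whether such samples came from the same mouse. They were kept as separate mice, as the labels call them.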

Additional observations from a re-analysis of the deposited data

Results flagged for a closer look

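Of 63 groups of mice checked for 21 members in neurons, 9 held a mouse far from the rest of its group, where chance flags about 1 in 20 groups. In CPM, rotarod mouse 3 was far above the others for Cdh13 (785.3, next 521.9) and Cdh4 (380.2, next 210.8). Control mouse 5 was high for Cdh12 (418.8, next 331.3) and Cdh8 (594.0, next 493.5) and low for Cdh20 (91.04, next 171.6). Formalin mouse 4 was high for Cdh8 (692.7, next 520.9), control mouse 4 high for Cdh9 (77.38, next 45.45), formalin mouse 6 low for Cdh11 (45.3, next 85.9) and control mouse 2 low for Pcdh15 (1087, next 1287).

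In 5 cases every rotarod mouse lay on one side of the control mean in 1 class and on the other side in another class, and the difference was not tested. The number of pairs checked and the share over all genes were not counted, so these cases are a description. As log2 of the ratio of means, rotarod over control, Cdh13 was at 0.44 in neurons and -0.35 in meningeal or Schwann and -0.70 in endothelial or vascular cells. Cdh22 was at 0.79 in astrocytes and -1.37 in meningeal or Schwann and -1.25 in endothelial or vascular cells. Cdh4 was at -1.39 in astrocytes and 0.64 in endothelial or vascular cells. Levels were low for Cdh22 in meningeal or Schwann (26.0 CPM over all mice) and endothelial or vascular cells (23.5). Neuronal markers were also lower in rotarod than in control mice, and their part was not tested. They stood at 514.8 against 694.9 CPM in meningeal or Schwann cells and 398.0 against 534.4 in endothelial or vascular cells. In astrocytes they stood at 479.5 against 740.5.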

How the results depend on the processing

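Between formalin and rotarod neurons the count of members called, 1 in edgeR, was 2 in DESeq2, 2 without the expression filter and 2 with only the 2 groups compared. It was 0 with the span trend removed, 0 with formalin samples merged, 0 with the replicate block (31 calls over all genes) and 0 in the same samples without the block (45), where 10 samples in place of 15 entered. Leaving out 1 mouse gave 0 to 2, with 0 without rotarod mouse 3, and the pairing changed no other call. In endothelial or vascular cells, formalin against rotarod, leaving out 1 mouse gave 0 to 1. In every other comparison of groups all alternatives gave 0. DE against DI gave 6 to 8 calls when 1 mouse was left out and 6 to 8 under the other alternatives. Dorsal against ventral gave 7 to 10 and 5 to 12, the lowest being 5 without the cx mice, and its count over all genes, 1109, rose to 1881 in DESeq2 and 1705 without the filter. Cdh9, which fails the filter, was then lower in dorsal families (DESeq2 log2 -1.45, adjusted p = 3.906e-05). VE against VI stayed at 0. No member called in a main test changed direction under an alternative. Of the uncalled members named above for each comparison, Cdh18 and Cdh20 changed sign, both in endothelial or vascular cells, formalin against control. There Cdh18 (log2 -0.22) ran from -0.37 to 0.01 over the alternatives, and Cdh20 (0.16) from -0.02 to 0.28. Of 223 levels, 1 moved by over 1 SD when nuclei were averaged: Cdh18 in neurons, to 1243. Depth limits the class levels of the 8 members with under 50 UMIs in their highest class, and families with few nuclei, such as ME. Cdh23 is among these 8 through 39 UMIs in endothelial or vascular cells. Its level there was 29.3 ± 28.7 CPM, against 23.9 ± 10.4 in neurons, and higher in 11 of 23 mice. In control neurons it had 234 UMIs.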
